A study of Mus musculus with 18 samples.

Results

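Livers of mature adult mice, 16 weeks old, were compared with livers of young adult mice, 8 weeks old, all given the vehicle, phosphate-buffered saline (PBS). The comparison takes 6 of the 18 liver libraries of the study, 3 of each age, chosen by their labelled age and treatment. All mice were of the C57BL/6J background, and no genetic alteration is named for them. The 8-week mice had 8 daily intraperitoneal injections of PBS and the 16-week mice had 7. Injections were given at about 8 in the morning, and the livers were taken 7.5 hours after the last one. Replicates 1, 2 and 3 are labelled female, male and female at 8 weeks, and female, female and male at 16 weeks, so each age has 1 male. Values below are in that order of replicates. The other 12 libraries came from 2-week mice and from 8-week and 16-week mice given the enzyme asparaginase at 3 IU per g of body weight, and the asparaginase mice serve here as a second set of livers of the same ages. The 8-week libraries are labelled as shared with another series, RNA of all ages went to the sequencing centre together, and the number of injections differs between the ages. Age, cohort and number of injections therefore cannot be told apart.

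Total counts were 36173744, 44371476 and 39223007 in the 8-week livers and 35862867, 37852333 and 45358073 in the 16-week livers. Expression is given in CPM, which puts every library on 1 scale after its size was adjusted by TMM, a trimmed mean of ratios between libraries. Genes of the major urinary proteins took 22.8, 43.0 and 20.7% of all counts at 8 weeks and 25.7, 28.4 and 47.9% at 16 weeks, with the highest share in the male of each age. Xist and 4 Y-linked genes matched the labelled sex in these 6 libraries. The 12 hepatocyte markers tested had a median log2 fold change of -0.003, and none passed the edgeR test (2 at an unadjusted p under 0.05, 0 with DESeq2). The summed level of 16 pancreatic acinar genes was 11.6, 10.1 and 10.3 CPM at 8 weeks and 13.1, 679.7 and 767 CPM at 16 weeks, so replicates 2 and 3 at 16 weeks stood apart. The 12 skeletal muscle genes summed to 808, 356 and 1009 CPM at 8 weeks and 170.0, 318 and 52.9 CPM at 16 weeks. All 16 acinar genes were higher and all 11 muscle genes tested were lower at 16 weeks. None of these 27 passed the edgeR test over all 18 libraries, with 18 at an unadjusted p under 0.05. DESeq2 called 15 of the 16 acinar genes and none of the muscle genes. Over all genes, 2493 of 16213 had an unadjusted p under 0.05, and DESeq2 called 716 of 15567. In whole liver, fewer cells of a type and less RNA per cell cannot be told apart.

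Liver makes, stores and burns fatty acids. Desaturases and elongases shape the chains, PPARA switches on genes of their oxidation, and enzymes of the Cyp4a family oxidise the far end of the chain. The same tissue keeps a daily clock: ARNTL (BMAL1) with CLOCK switches on the Per and Cry genes through E-boxes, PER and CRY proteins then repress them, and NR1D1 and NR1D2 repress Arntl. The proteins DBP, TEF and HLF carry the rhythm on to output genes through D-boxes.

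Few genes passed the test between the ages, and those that did included clock genes and a nuclear noncoding RNA among the rises and enzymes of fatty acid metabolism among the falls. Of 16213 genes tested, 29 rose and 38 fell at 16 weeks at an adjusted p under 0.05, together 0.413% of the genes tested (0.179% rose and 0.234% fell). At an unadjusted p under 0.05 there were 2493 genes. The median log2 fold change over all genes was 0.006. Among the 67 genes called, the size of the log2 fold change ran from 0.56 to 2.82 with a median of 1.11, and 63 were protein coding. The 3 libraries of one age lay wholly above or below those of the other in 58 of the 67. Over all genes tested, 8.09% were separate with 16 weeks higher and 8.18% with 16 weeks lower. The 9 called genes whose ages overlapped, Fitm1, Fam19a2, Csad, Col5a3, Nt5e, Car14, Nox4, Pla2g16 and a gene known only by its Ensembl number, had a male level unlike the female one. In all 67 the 16-week male differed from the 8-week male in the direction called, and both 16-week females from both 8-week females. Over all genes tested, that pattern held for 14.8% upwards and 15.4% downwards. These shares describe the genes called, since the same libraries chose them.

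The number called rested on single libraries. It was 29, 16 and 397 without replicate 1, 2 or 3 at 8 weeks, and 10, 17 and 3 without replicate 1, 2 or 3 at 16 weeks. Of the 67 genes, 24, 9, 65, 8, 16 and 3 were called in those fits in the same order. Melanoregulin (Mreg), a factor of vesicle transport with the smallest p of all, was the only gene called in all 6. Its levels were 26.2, 23.5 and 24.9 CPM at 8 weeks and 12.0, 12.3 and 13.9 CPM at 16 weeks, a narrow spread at both ages (log2 fold change -0.94 ± 0.09 SE, adjusted p = 0.00409). Ethe1 and Pltp were called in 5 of the 6 fits, and Scd2, Spry4, Ddc, Efhd2 and Gm16348 in 4. Of the rest, 36 genes were called in 1 of the 6, Per2, Wee1, Nampt, Cyp4a10 and Cd36 among them. Without a sex term 34 of the 67 were called, in the 12 adult libraries 32 and in the 6 PBS libraries 41. Without both 16-week libraries high in acinar genes, which leaves 1 PBS library at that age and assumes that it varies like the other groups, no gene passed in edgeR and 1282 had an unadjusted p under 0.05. Mreg, Ethe1, Efhd2, Ddc and Gm16348 were named after their values were seen.

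**Figure D1:**
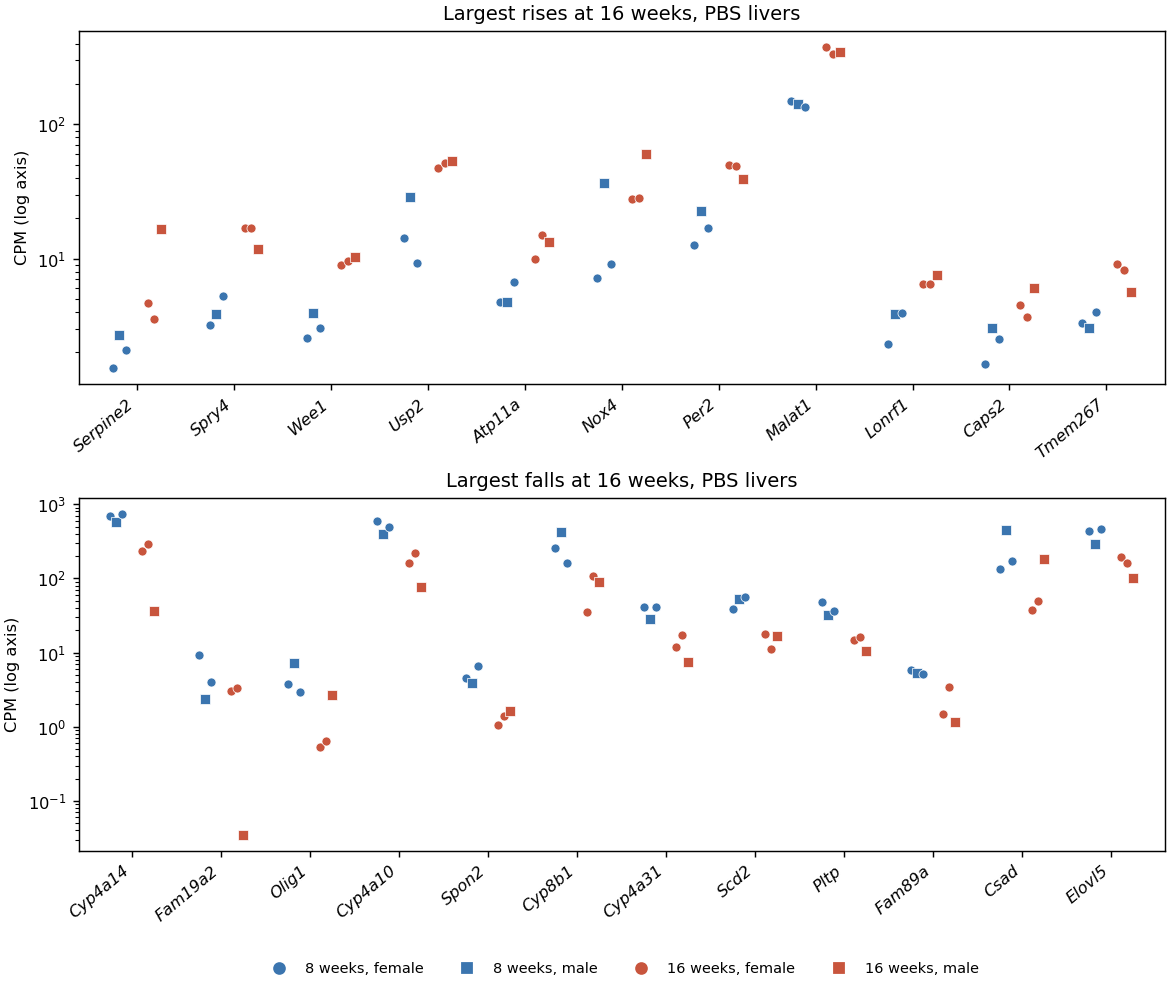
Expression in each PBS liver of 11 of the 12 largest rises (top) and the 12 largest falls (bottom) among called genes whose higher group averaged 1 CPM or more, in CPM on a log axis; circles are females and squares males, blue 8 weeks and red 16 weeks. The Malat1 levels lie close together within each age and far from the other age, while Fam19a2, Csad and Nox4 overlap between the ages.

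Among the rises, Serpine2, which encodes a secreted inhibitor of serine proteases, was at 1.53, 2.72 and 2.07 CPM at 8 weeks and 4.68, 3.56 and 16.6 CPM at 16 weeks. The 16-week male was the highest by far, and the ages did not overlap (log2 fold change 2.00 ± 0.32 SE, adjusted p = 0.0248). Spry4, an inhibitor of growth factor signalling through receptor tyrosine kinases, was at 3.22, 3.88 and 5.27 CPM at 8 weeks and 16.9, 17.0 and 11.8 CPM at 16 weeks. Its 16-week levels were above all 8-week levels in both sexes (log2 fold change 1.80 ± 0.24 SE, adjusted p = 0.0108). Atp11a, a flippase that moves phospholipids between the leaflets of the plasma membrane, rose by 1.43 ± 0.25 SE on the log2 scale.

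Nox4, an oxidase that makes hydrogen peroxide and stood higher in males than females at each age, was at 7.21, 36.5 and 9.04 CPM at 8 weeks and 27.6, 28.0 and 60.3 CPM at 16 weeks. The 8-week male lay above both 16-week females, so the ages overlapped, and the difference was seen within each sex (log2 fold change 1.32 ± 0.25 SE, adjusted p = 0.0474). Malat1, a long noncoding RNA kept in the nucleus (chr19:5795690-5802672, GRCm38), was at 150.5, 141 and 136 CPM at 8 weeks and 375, 336 and 345 CPM at 16 weeks. The 3 libraries of each age lay close together and far from the other age, a 2.43-fold difference (log2 fold change 1.28 ± 0.18 SE, adjusted p = 0.0125). Neat1, another nuclear noncoding RNA, was at 102, 123 and 78.6 CPM at 8 weeks and 164, 159 and 110.4 CPM at 16 weeks, with overlapping ages and no call (log2 fold change 0.43 ± 0.26 SE, adjusted p = 0.462). Transcripts of the mitochondrial genome were 8.07, 5.71 and 8.02% of counts at 8 weeks and 6.66, 6.35 and 5.01% at 16 weeks. Their part in the Malat1 difference was not tested. Lonrf1, Caps2 and Tmem267 were also among the 12 largest rises, with log2 fold changes of 1.05, 1.01 and 0.99. Piwil2, of the PIWI family known from the germ line, had the largest log2 fold change of all rises but rested on 2, 1 and 4 counts at 8 weeks and 11, 10 and 10 counts at 16 weeks, and it was named after its values were seen.

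Of the 38 falls in edgeR, 7 were in the 2 fatty acid lists, and none of the 29 rises was. Of 48 genes of fatty acid synthesis and lipid storage tested, none rose and 4 fell, Scd2, Elovl5, Fitm1 and Cd36, against 0.234% of all genes. The list's median log2 fold change was -0.13, beside 0.006 over all genes, and 31 of the 48 were lower at 16 weeks. Of 55 genes of fatty acid oxidation and PPARA targets, none rose and 3 fell, all Cyp4a genes. The oxidation list's median was -0.21 and 46 of the 55 were lower. DESeq2 called 1 rise and 7 falls in the synthesis list and 11 falls in the oxidation list, and limma-voom called 4 genes in each. Over all genes, DESeq2 called 359 rises and 357 falls among 15567, and limma-voom called 71 of 16213.

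Scd2, a desaturase that puts the first double bond into saturated fatty acids (chr19:44293674-44306864), was at 38.2, 52.6 and 57.0 CPM at 8 weeks and 18.1, 11.1 and 16.5 CPM at 16 weeks. All 16-week levels were below all 8-week levels, a 3.19-fold difference (log2 fold change -1.67 ± 0.20 SE, adjusted p = 0.00755). Scd1, the main desaturase of liver, was at 8826, 7192 and 8527 CPM at 8 weeks and 1917, 739.5 and 1939 CPM at 16 weeks. The ages did not overlap here either, yet Scd1 missed the test (log2 fold change -2.35 ± 0.94 SE, adjusted p = 0.263). It passed in the fits of the 12 adult libraries, the 6 PBS libraries, their 4 females and without the 3 libraries of 2 weeks that hold transcripts of both sexes (adjusted p = 0.0245, 0.0127, 0.0428 and 0.0225). Elovl5, which lengthens polyunsaturated fatty acids, was at 431, 288 and 469 CPM at 8 weeks and 195, 163 and 102 CPM at 16 weeks. Its highest 16-week level lay below its lowest 8-week level, a 2.82-fold difference (log2 fold change -1.50 ± 0.21 SE, adjusted p = 0.0125). Fitm1, a protein of lipid droplet formation, was at 8.83, 16.5 and 7.59 CPM at 8 weeks and 1.41, 1.99 and 10.6 CPM at 16 weeks. Both males were above the females of their age, and the fall was seen within each sex (log2 fold change -1.46 ± 0.21 SE, adjusted p = 0.0125). Cd36, which takes up fatty acids, was at 143, 91.4 and 106 CPM at 8 weeks and 61.6, 77.9 and 39.9 CPM at 16 weeks, with no overlap (log2 fold change -0.99 ± 0.19 SE, adjusted p = 0.0474).

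None of Acly, Acaca and Fasn, which build the carbon chain before it is lengthened, passed. Acly, which makes cytosolic acetyl-CoA, had a log2 fold change of -0.09 (adjusted p = 0.901), the carboxylase gene Acaca one of -0.08 (adjusted p = 0.932) and the synthase gene Fasn one of -0.12 (adjusted p = 0.94). Their levels overlapped between the ages. Srebf1, the regulator of these genes, had 0.35 (adjusted p = 0.498), and the elongase gene Elovl6 -0.53 (adjusted p = 0.677). Me1, the malic enzyme that supplies NADPH to synthesis, was at 259, 251 and 216 CPM at 8 weeks and 114, 87.0 and 101 CPM at 16 weeks. Its ages were well apart, but the value missed the threshold (log2 fold change -1.41 ± 0.31 SE, adjusted p = 0.071). At the other end, Lpin1, Thrsp and Cidec were higher at 16 weeks by 1.11, 0.82 and 0.78 on the log2 scale without passing (adjusted p = 0.262, 0.701 and 0.412), and the regulator Pparg had -0.68 (adjusted p = 0.134).

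The 3 called genes of the Cyp4a cluster, near each other on chromosome 4, gave the 3 calls of the oxidation list. Cyp4a14 (chr4:115486200-115496142) was at 687, 569 and 739 CPM at 8 weeks and 231, 295 and 36.0 CPM at 16 weeks. The 16-week male was the lowest of all 6 livers, and the fitted difference was 6.51-fold (log2 fold change -2.70 ± 0.39 SE, adjusted p = 0.0125). The size depended on the fit. The log2 fold change of Cyp4a14 was -2.24 in the 6 PBS libraries, -1.83 without a sex term and -1.44 in the 4 PBS females. Cyp4a10 (chr4:115518264-115533649) was at 588, 397 and 487 CPM at 8 weeks and 164, 219.9 and 76.6 CPM at 16 weeks. The order of the livers was the same as for Cyp4a14 in that the 16-week male was lowest and the ages were separate (log2 fold change -1.92 ± 0.34 SE, adjusted p = 0.0357). Cyp4a31 (chr4:115563649-115579015) was at 40.7, 28.4 and 40.9 CPM at 8 weeks and 12.1, 17.3 and 7.39 CPM at 16 weeks, again separate (log2 fold change -1.70 ± 0.26 SE, adjusted p = 0.0176). These genes are close paralogs, and reads shared among them may have been split or dropped in counting, so the single values are uncertain. Of the 7 called fatty acid genes, Scd2 alone passed without a sex term in the fit (adjusted p = 0.00685). There Elovl5, Cyp4a31, Cyp4a10, Cd36, Cyp4a14 and Fitm1 had adjusted p of 0.0691, 0.124, 0.205, 0.266, 0.323 and 0.375. Cyp4a32, another member, had -1.30 without passing (adjusted p = 0.0663). The male-biased members Cyp4a12a and Cyp4a12b were also lower without passing in the fit of all 18 libraries. Each passed in 3 of the 22 alternatives, edgeR without a filter on low counts, the 6 PBS libraries and their 4 females. Cyp4a12a was at 10.5, 501 and 28.6 CPM at 8 weeks and 1.26, 1.34 and 139.9 CPM at 16 weeks, so the males dominated its level and the ages overlapped (log2 fold change -3.03 ± 0.82 SE, adjusted p = 0.119).

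The other 52 genes of the oxidation list did not pass in the edgeR fit of all 18 libraries. Ehhadh, the bifunctional enzyme of peroxisomal oxidation, came closest to the threshold, at 421, 320.4 and 397 CPM at 8 weeks and 193, 169.8 and 189.5 CPM at 16 weeks with the ages separate (log2 fold change -1.01 ± 0.20 SE, adjusted p = 0.0513). It passed in 7 of the 22 alternatives, among them DESeq2, limma-voom and edgeR on the 6 PBS libraries (adjusted p = 6.57e-05, 0.0468 and 0.0159). Cpt1a, the gate of mitochondrial oxidation, had a log2 fold change of 0.15 (adjusted p = 0.73), with overlapping ages. Ppara itself was at 47.8, 85.1 and 82.2 CPM at 8 weeks and 104, 99.2 and 101 CPM at 16 weeks, higher at 16 weeks without a call (log2 fold change 0.51 ± 0.19 SE, adjusted p = 0.245). Pdk4 and Acot1 were lower by values of -1.23 and -0.78 without passing (adjusted p = 0.325 and 0.31), and the hormone gene Fgf21 was at 0.446, 2.38 and 0.924 CPM at 8 weeks and 0.989, 0.292 and 0.35 CPM at 16 weeks, at low levels that overlapped.

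**Figure D2:**
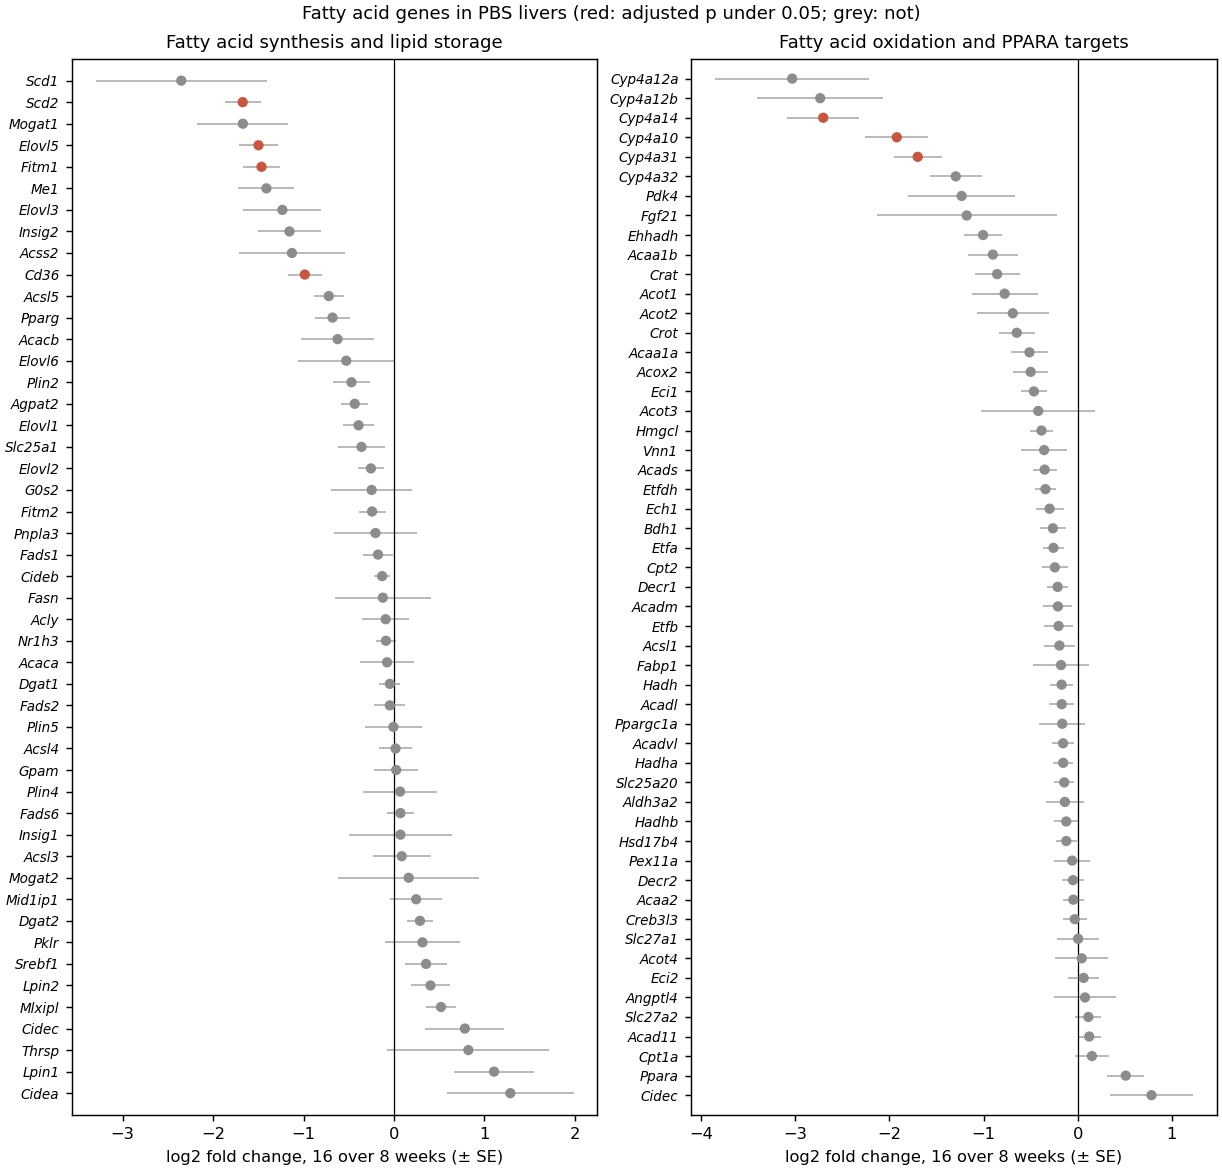
Log2 fold change of 16 over 8 weeks in PBS livers with its standard error (bars) for the 48 genes tested of the synthesis and storage list (left) and 53 of the 55 of the oxidation list (right), ordered by value; red points passed an adjusted p of 0.05. Genes in red are Scd2, Elovl5, Fitm1 and Cd36 on the left and 3 Cyp4a genes on the right, and Scd1 has the lowest value on the left with a wide bar.

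Most core clock genes stood higher at 16 weeks, 1 of them past the test. Of 20 core clock genes tested, 1 rose, Per2, and none fell, beside 0.179% and 0.234% of all genes. Their median log2 fold change was 0.27, 15 of 20 were higher, and 9 were separate upwards and 1 downwards. Of 33 clock outputs tested, 5 rose, Wee1, Usp2, Nampt, Marveld1 and Coq10b, and 1 fell, Car14. The outputs had a median of 0.55, with 14 separate upwards and 3 downwards. Over all genes tested, 8.09% were separate upwards and 8.18% downwards. The labels give both ages the same hour of injection and the same delay to collection. The exact hour at which each liver was taken is not given in the sources used here, and its part in these values was not tested. DESeq2 called 8 core clock rises and no fall, beside 359 rises and 357 falls among 15567 genes. Exons of Nr1d1, Cry2, Bhlhe40, Dbp and Car14 overlap those of another gene.

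Per2 (chr1:91415982-91459324), a repressor at the heart of the loop, was at 12.6, 22.6 and 16.9 CPM at 8 weeks and 49.9, 48.9 and 39.4 CPM at 16 weeks. The lowest 16-week level was above the highest 8-week level, a 2.48-fold difference (log2 fold change 1.31 ± 0.21 SE, adjusted p = 0.0248). Per1 was at 26.1, 29.2 and 16.4 CPM at 8 weeks and 46.3, 38.6 and 52.0 CPM at 16 weeks and did not pass (log2 fold change 0.89 ± 0.20 SE, adjusted p = 0.071). Per3 was at 19.7, 15.2 and 14.5 CPM at 8 weeks and 45.7, 54.9 and 32.0 CPM at 16 weeks and did not pass (log2 fold change 1.38 ± 0.33 SE, adjusted p = 0.0846). Both Per1 and Per3 were nonetheless separate between the ages. Ciart, another repressor of the clock, was at 3.60, 14.1 and 1.97 CPM at 8 weeks and 22.4, 23.9 and 29.5 CPM at 16 weeks. The 8-week male was well above the 8-week females, and the value missed the threshold in the fit of all 18 libraries (log2 fold change 2.06 ± 0.44 SE, adjusted p = 0.064). Ciart was called in 6 of the 22 alternatives, among them edgeR on the 6 PBS libraries and on their 4 females (adjusted p = 0.0262 and 0.0165). Cry2 was at 21.9, 23.9 and 18.0 CPM at 8 weeks and 29.8, 31.2 and 30.5 CPM at 16 weeks, separate but not called (log2 fold change 0.50 ± 0.11 SE, adjusted p = 0.0676). Of the 22 alternatives, 4 called Cry2. Cry1 overlapped, with a log2 fold change of 0.30 (adjusted p = 0.701).

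The activators and the opposing arm of the loop did not pass in the fit of all 18 libraries. Arntl was at 2.74, 1.99 and 3.85 CPM at 8 weeks and 0.569, 0.905 and 0.805 CPM at 16 weeks. It was lower in every 16-week liver, at a low level throughout (log2 fold change -1.88 ± 0.70 SE, adjusted p = 0.232). It passed in the fits of the 12 adult libraries, the 6 PBS libraries and their 4 females (adjusted p = 0.0428, 0.0191 and 0.0432). Its partners Clock and Npas2 had log2 fold changes of -0.50 and -1.59 (adjusted p = 0.437 and 0.425), with overlapping ages. Nr1d1, a repressor of Arntl, was at 65.7, 56.2 and 42.7 CPM at 8 weeks and 33.6, 48.2 and 52.5 CPM at 16 weeks with no call (log2 fold change -0.25 ± 0.56 SE, adjusted p = 0.869). Nr1d2, its relative, was at 66.3, 73.3 and 70.8 CPM at 8 weeks and 103, 105 and 105 CPM at 16 weeks, separate without a call (log2 fold change 0.57 ± 0.30 SE, adjusted p = 0.389). Bhlhe40 was also separate and uncalled, at 0.75 (adjusted p = 0.128). Rora, Fbxl21, Timeless, Csnk1d, Csnk1e and Bhlhe41 were not called either, with adjusted p from 0.167 to 0.931. Among the D-box factors, Tef was at 111, 128 and 103 CPM at 8 weeks and 205, 229 and 208 CPM at 16 weeks (log2 fold change 0.90 ± 0.23 SE, adjusted p = 0.102) and Hlf had 0.55 (adjusted p = 0.141), both separate. Dbp had 0.57 (adjusted p = 0.716) and Nfil3, which competes with them, -0.14 (adjusted p = 0.884), both overlapping.

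Among the outputs, Wee1, the kinase that holds back entry into mitosis, was at 2.55, 3.94 and 3.05 CPM at 8 weeks and 9.02, 9.55 and 10.3 CPM at 16 weeks, separate in both sexes (log2 fold change 1.59 ± 0.29 SE, adjusted p = 0.0436). Usp2, a deubiquitinase, was at 14.3, 28.9 and 9.29 CPM at 8 weeks and 47.2, 51.8 and 53.4 CPM at 16 weeks. The 8-week livers ranged widely and the 16-week livers hardly at all (log2 fold change 1.52 ± 0.29 SE, adjusted p = 0.0483). Nampt, the rate-limiting enzyme of NAD salvage, was at 49.3, 54.7 and 51.1 CPM at 8 weeks and 136, 79.5 and 88.6 CPM at 16 weeks, with the first 16-week female highest (log2 fold change 0.97 ± 0.19 SE, adjusted p = 0.0482). Coq10b, which binds coenzyme Q, was at 34.0, 43.2 and 27.5 CPM at 8 weeks and 65.2, 56.2 and 66.6 CPM at 16 weeks (log2 fold change 0.79 ± 0.13 SE, adjusted p = 0.0256), and Marveld1 rose by 0.85 on the log2 scale (adjusted p = 0.0272). Car14, a carbonic anhydrase, was at 18.9, 28.5 and 14.8 CPM at 8 weeks and 8.30, 11.9 and 17.9 CPM at 16 weeks, higher in males and lower at 16 weeks within each sex (log2 fold change -0.70 ± 0.13 SE, adjusted p = 0.0431). Cyp7a1, the rate-limiting enzyme of bile acid synthesis, and Elovl3, an elongase, did not pass in the fit of all 18 libraries and overlapped, with log2 fold changes of 0.63 and -1.23 (adjusted p = 0.616 and 0.205). Cyp7a1 passed in 1 of the 22 alternatives, edgeR on the 4 PBS females, with a log2 fold change of 1.98 (adjusted p = 0.0428).

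**Figure D3:**
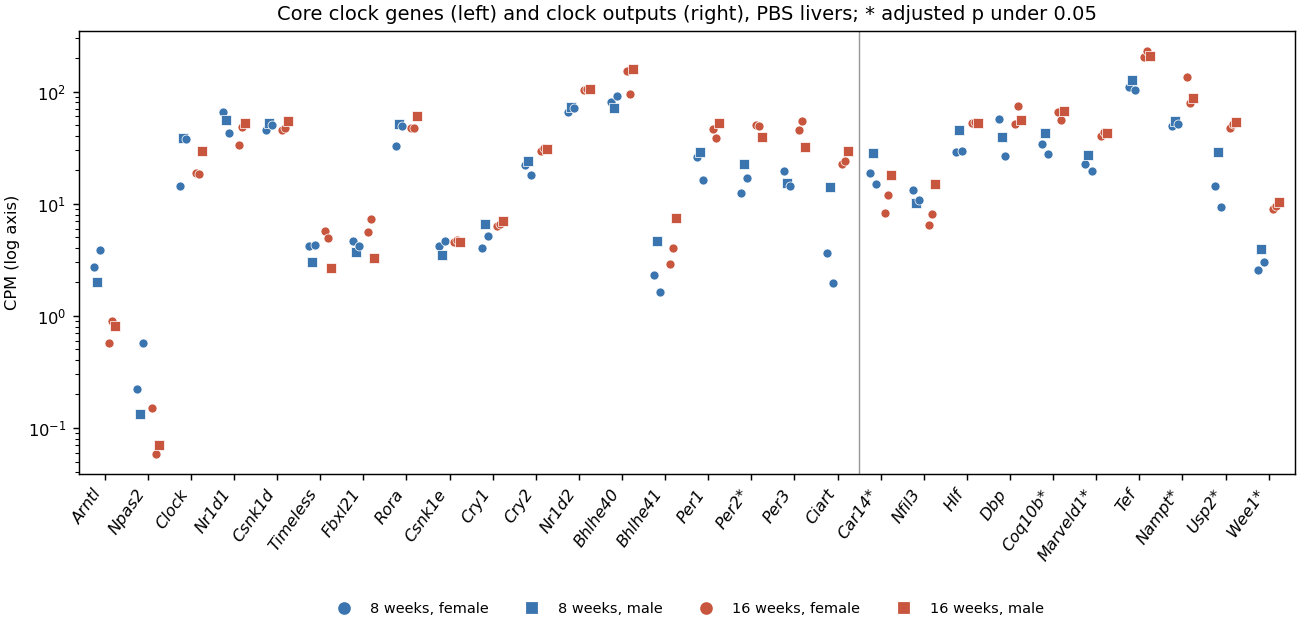
Expression in each PBS liver of 18 of the 20 core clock genes (left of the line) and 10 clock outputs (right), each part ordered by log2 fold change, in CPM on a log axis; circles are females, squares males, blue 8 weeks and red 16 weeks, and a star marks an adjusted p under 0.05. The Per genes, Ciart, Usp2 and Wee1 lie higher at 16 weeks and Arntl lower.

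Promoters of the called clock and fatty acid genes were looked up in RefSeq (GRCm38.p6), in windows from 250 bases before to 50 bases after the start, and 8 of the 14 genes had one. Per2, Wee1, Scd2, Cyp4a10, Cyp4a14 and Cyp4a31 had none. The E-box CACGTG was found in 7.15% of 32851 windows of all genes, in 4 of 22 core clock windows (18.2%; Bhlhe41, Ciart, Cry1 and Per1) and in 7 of 29 clock output windows (24.1%). The D-box TTATGTAA, searched on both strands like the E-box, was in 0.938% of all windows. The DR1 repeat bound by PPARA, searched on both strands as AGGTCA, any base and AGGTCA again, was in 13 windows (0.0396%). None was in the windows of the 2 clock lists or of the genes that rose or fell. These letters are so rare that their absence from so few windows tells nothing. The oxidation list was not searched as a group, and the called Cyp4a genes had no window. Among the windows of all genes that rose, 1 of 49 held an E-box (2.04%), and among those of genes that fell, 3 of 39 (7.69%). Motif matches describe letters in the window and not binding. The windows of Coq10b (chr1:55052520-55052819, plus strand) and Elovl5 (chr9:77917115-77917414, plus strand) are shown because they alone among the 8 hold a match, marked in capitals.
Coq10b: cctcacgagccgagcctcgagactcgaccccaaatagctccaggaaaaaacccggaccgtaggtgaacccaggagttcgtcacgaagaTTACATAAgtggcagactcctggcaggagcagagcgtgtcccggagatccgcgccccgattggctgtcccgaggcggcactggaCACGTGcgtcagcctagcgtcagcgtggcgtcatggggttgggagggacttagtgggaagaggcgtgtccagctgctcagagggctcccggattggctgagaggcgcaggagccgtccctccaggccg
Elovl5: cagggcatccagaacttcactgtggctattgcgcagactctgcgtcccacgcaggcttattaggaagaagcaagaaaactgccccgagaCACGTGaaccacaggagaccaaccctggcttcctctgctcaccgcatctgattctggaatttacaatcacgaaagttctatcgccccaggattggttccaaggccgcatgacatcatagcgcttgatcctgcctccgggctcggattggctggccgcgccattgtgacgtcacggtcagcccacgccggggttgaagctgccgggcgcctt
In Coq10b the D-box (its other strand, as printed) begins 162 bases and the E-box 78 bases before the start, with no overlap between them. In Elovl5 the E-box begins 161 bases before the start. Coq10b rose and Elovl5 fell, as given above.

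Other named falls lay outside both groups. Cyp8b1, which makes the cholic acid branch of bile acids, was at 261, 417 and 163 CPM at 8 weeks and 35.4, 108 and 89.0 CPM at 16 weeks, separate between the ages (log2 fold change -1.83 ± 0.34 SE, adjusted p = 0.0474). It was the 1 of 29 bile acid genes tested to pass in the edgeR fit of all 18 libraries, beside 0.413% of all genes. Of these 29, 11 had an unadjusted p under 0.05, beside 2493 of 16213 genes. DESeq2 called 1 rise and 3 falls, beside 359 and 357 among 15567 genes. The list's median was -0.08. Csad, which makes the taurine precursor hypotaurine, was at 135, 449 and 170.2 CPM at 8 weeks and 37.8, 49.4 and 185 CPM at 16 weeks. Males were far above females, and the fall was seen within each sex (log2 fold change -1.54 ± 0.25 SE, adjusted p = 0.0248). Pltp, the phospholipid transfer protein of plasma, was at 47.6, 32.2 and 36.3 CPM at 8 weeks and 14.8, 16.1 and 10.6 CPM at 16 weeks, separate between the ages (log2 fold change -1.56 ± 0.20 SE, adjusted p = 0.0102). Ethe1, a mitochondrial enzyme of sulfide breakdown, was at 39.2, 35.2 and 28.4 CPM at 8 weeks and 8.60, 12.6 and 15.7 CPM at 16 weeks (log2 fold change -1.44 ± 0.17 SE, adjusted p = 0.00755). The exons of Scd2, Fitm1 and Olig1 overlap noncoding genes, and those of Csad, Pltp and Ethe1 overlap those of Zfp740, Ctsa and Zfp575, whose reads may be counted with them. Fam89a and the matrix protein gene Spon2 fell by 1.55 and 1.87 on the log2 scale (adjusted p = 0.0474 and 0.0474). Olig1, a transcription factor known from oligodendrocytes, was at 3.83, 7.22 and 2.90 CPM at 8 weeks and 0.539, 0.642 and 2.66 CPM at 16 weeks, and its 2 lowest levels were the 16-week females (log2 fold change -2.01 ± 0.34 SE, adjusted p = 0.0287). Fam19a2, a secreted chemokine-like protein, was at 9.28, 2.38 and 4.00 CPM at 8 weeks and 3.06, 3.36 and 0.035 CPM at 16 weeks, where the low value of the 16-week male is 1 count (log2 fold change -2.69 ± 0.42 SE, adjusted p = 0.0223).

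Further called genes, named here after their values were seen, include enzymes and receptors of liver. Ddc, the decarboxylase of aromatic amino acids, was at 47.5, 60.6 and 36.9 CPM at 8 weeks and 16.1, 19.5 and 20.7 CPM at 16 weeks (log2 fold change -1.41 ± 0.19 SE, adjusted p = 0.0125). Nt5e (CD73, which makes adenosine) fell by 1.31 and Adora1 (the A1 adenosine receptor) by 1.13 on the log2 scale, with adjusted p of 0.0326 and 0.0248. Coq8a, of coenzyme Q synthesis, fell while Coq10b rose: Coq8a was at 282, 199 and 203 CPM at 8 weeks and 86.8, 101 and 110.1 CPM at 16 weeks (log2 fold change -1.11 ± 0.18 SE, adjusted p = 0.0287). The mitochondrial calcium channel gene Mcu and the tubulin gene Tubb5 both fell by 0.56, the glutathione transferase gene Gstm4 by 1.44 and the retinol dehydrogenase gene Rdh16 by 0.82. Mertk, the receptor by which macrophages take up dying cells, rose by 0.59 and Il15ra, the interleukin-15 receptor chain, by 0.80. Beside Mertk, 18 Kupffer cell and macrophage markers had a median of 0.13. Of these, 16 were higher and 2 were separate upwards, beside 8.09% of all genes. None was called in the edgeR fit of all 18 libraries (2 at an unadjusted p under 0.05, and 2 rises with DESeq2). In all, 52 of the 67 called genes were in none of the 40 gene lists. In the edgeR fit of all 18 libraries no member was called in 34 lists (703 entries tested, 135 at an unadjusted p under 0.05, 49 called by DESeq2). Over all genes, 2493 of 16213 had an unadjusted p under 0.05, and DESeq2 called 716 of 15567. Among the 34 lists were cholesterol synthesis (25 tested, median -0.10), cell cycle (41, -0.42), interferon response (46, -0.08), ER chaperones (30, 0.18) and targets of ATF4 and CHOP (38, -0.26).

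The asparaginase mice gave the same age contrast in other animals, with no library in common. The fit still shares its estimate of spread and its sex term of each age between the treatments. The fitted values of the 2 contrasts are therefore not independent. Their labelled sexes are female, male and male at 8 weeks, and male, male and female at 16 weeks. In them 689 genes were called (4.25% of 16213), 265 higher (1.63%) and 424 lower (2.62%) at 16 weeks. Of the 67 genes called in PBS livers, 58 had the same sign with asparaginase, 23 of the 29 rises and 35 of the 38 falls. Called in both, in the same direction, were 24 genes, 8 rises and 16 falls, which is 35.8% of the PBS calls and 3.48% of the asparaginase calls, and none was called in opposite directions. The 29 rises had a median log2 fold change of 0.97 in PBS and 0.25 in asparaginase mice, and the 38 falls -1.26 and -0.60.

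Markers of other tissues moved with that contrast. The skeletal muscle genes summed to 2764, 439 and 186 CPM at 8 weeks and 6.33, 22.6 and 4.08 CPM at 16 weeks with asparaginase, and all 11 tested fell (median -6.02). The squamous epithelium genes summed to 825, 434 and 11.6 CPM at 8 weeks and 1.55, 2.30 and 2.11 CPM at 16 weeks, and 2 of 11 fell (median -7.71). The acinar genes summed to 236, 10.1 and 19.8 CPM at 8 weeks and 408, 13.9 and 5003 CPM at 16 weeks, with none called in edgeR. Without asparaginase replicate 1, 2 or 3 at 8 weeks the calls numbered 3, 322 and 900, and without replicate 1, 2 or 3 at 16 weeks 198, 263 and 110, beside 689. Of the 67 genes, 0, 17, 18, 13, 13 and 6 were then called in both treatments in the same direction, beside 24, and 64, 59, 58, 59, 56 and 56 had the same sign. Without both 8-week libraries high in squamous genes 7 genes were called, 2 of the 67 among them, where the lone library left is assumed to vary like the other groups. These fits were chosen after the data were seen, and the part of the other tissues in the calls was not tested.

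Scd2 in asparaginase livers was at 70.0, 49.0 and 58.0 CPM at 8 weeks and 17.3, 18.8 and 19.1 CPM at 16 weeks (log2 fold change -1.70 ± 0.20 SE, adjusted p = 0.00177). Elovl5 was at 261, 256 and 339 CPM at 8 weeks and 122, 90.8 and 195 CPM at 16 weeks (log2 fold change -1.04 ± 0.21 SE, adjusted p = 0.0189). Scd2 and Elovl5 were thus called under both treatments in the same direction. Cyp4a14 was at 1223, 637 and 1110.3 CPM at 8 weeks and 124, 39.6 and 630.2 CPM at 16 weeks, with the 16-week female the highest of its age (log2 fold change -2.18 ± 0.38 SE, adjusted p = 0.013). Cyp4a10 and Cyp4a31 fell too, by 2.11 and 2.09 on the log2 scale (adjusted p = 0.0118 and 0.00306). In edgeR 7 genes of the synthesis list and 9 of the oxidation list fell with asparaginase, beside 2.62% of all genes, and none rose in either. Leaving out 1 asparaginase library at a time, these counts ran from 0 to 7 in each list.

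In asparaginase mice the core clock median was -0.05, none rose, and 1, Bhlhe41, fell (log2 fold change -1.33 ± 0.27 SE, adjusted p = 0.0206). Of the clock outputs 1 rose and 2 fell, with a median of -0.03, beside 1.63% and 2.62% of all genes, and Car14 fell by 0.68 on the log2 scale (adjusted p = 0.0167), as in PBS livers. Per2 with asparaginase was at 28.4, 27.7 and 25.4 CPM at 8 weeks and 18.7, 35.1 and 37.6 CPM at 16 weeks, with overlapping ages (log2 fold change 0.25 ± 0.21 SE, adjusted p = 0.618). Wee1 had 0.17 (adjusted p = 0.832), with overlapping ages. Usp2 was at 51.2, 44.8 and 45.4 CPM at 8 weeks and 24.9, 39.3 and 40.2 CPM at 16 weeks. Its ages were separate with 16 weeks lower, the other way from PBS livers, without a call (log2 fold change -0.37 ± 0.29 SE, adjusted p = 0.582). The difference between the treatments in the age effect was itself tested, and no clock gene passed: the adjusted p of the difference was 0.377 for Per2, 0.315 for Usp2 and 0.377 for Wee1, and the smallest over the core clock list was 0.208. Over all genes 2 passed that test (0.0123%), Cxcl13 and Acnat2, and neither is among the 67.

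**Figure D4:**
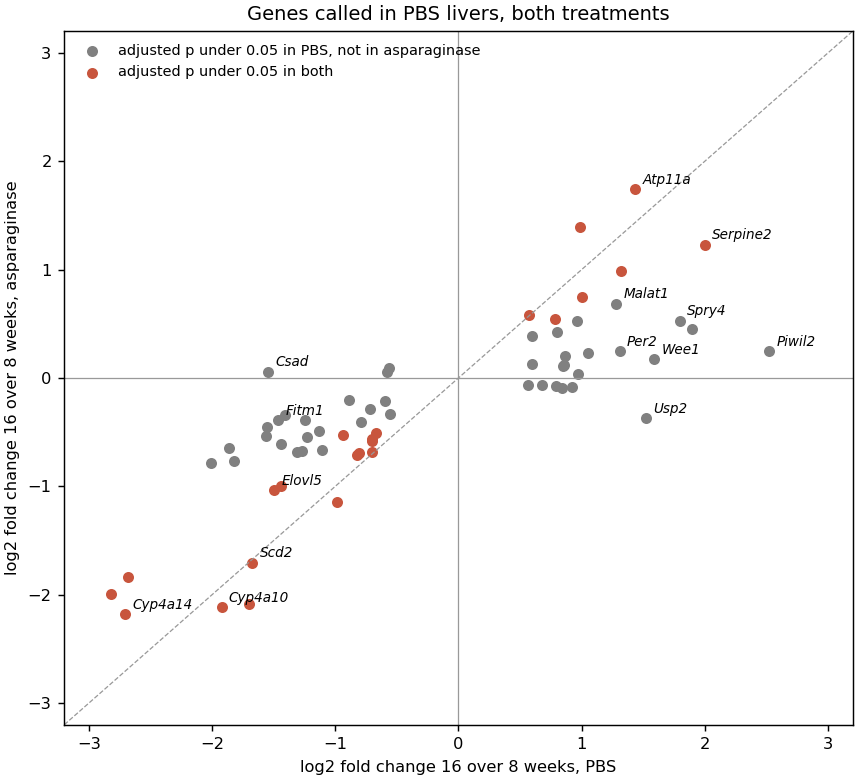
Log2 fold change of 16 over 8 weeks in asparaginase livers (vertical) against that in PBS livers (horizontal) for 66 of the 67 genes called in PBS livers; red points passed in both, grey in PBS livers and not in asparaginase livers, and the dashed line marks equal change. Scd2 and Cyp4a10 lie near the dashed line, Per2 and Wee1 lie near 0 on the vertical axis, and Usp2 lies below 0 on it.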

How the data were processed

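PolyA RNA of 18 livers was sequenced with standard Illumina library preparation, per the labels. The authors deposited whole-number counts per Ensembl gene (37315 genes). The submitters' processing notes name TopHat2 2.0.9, DESeq2 and GRCm38 (mm10). The counting tool and its use of strand were not given in the sources used here, so reads of overlapping and antisense genes cannot be told apart (exons of 15 of the 67 called genes overlap another gene's, 24.8% over all genes tested). Of the IDs, 35533 matched GENCODE M21.

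Counts were filtered with filterByExpr (minimum count 10, minimum total 15) and fitted with edgeR 4.0.16 in R 4.3.3 over all 18 libraries by the quasi-likelihood test with TMM factors, 1 term for each group, and sex nested in age (0.5 for males, -0.5 for females). A gene rose or fell at a Benjamini-Hochberg adjusted p under 0.05 over 16213 genes. Calls in edgeR are those of this main fit unless another fit is named. SE was taken as the size of the log2 change over the root of its F statistic. Alternatives used DESeq2 1.42.0 and limma 3.58.1, other factors, filters, library sets and sex terms. The edgeR, limma and DESeq2 fits were run on simulated counts. There all genes shared 1 spread and the PBS livers had no sex effect, so the check does not measure error rates on these data. No 2 of the 18 columns were identical. The labels do not say whether replicates are separate animals, so p-values rest on the spread between libraries within groups, estimated over all 18 libraries.

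Members and lists were chosen with earlier results of these data known. The rule for named genes takes the 12 largest rises and falls averaging 1 CPM or more in the higher group, passing over predicted genes, the core clock and set fatty acid and output genes, and called or leading members of other lists. Not all are printed or drawn, and some genes are not reported here, although counts and medians include them. Neat1, Lpin1 and Cyp4a32 were added after their values were seen.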

Additional observations from a re-analysis of the deposited data

Results flagged for a closer look

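The test of whether the age difference depended on treatment called 2 genes. For Cxcl13, a chemokine that attracts B cells, the log2 difference between 16 and 8 weeks was lower in PBS than in asparaginase mice, with a difference of -3.46 (adjusted p = 0.0229). In PBS livers Cxcl13 was at 2.97, 0.861 and 1.82 CPM at 8 weeks and 3.24, 4.44 and 2.31 CPM at 16 weeks, and in asparaginase livers at 1.06, 0.484 and 0.621 CPM at 8 weeks and 17.2, 17.7 and 17.2 CPM at 16 weeks. For Acnat2, an acyl transferase of peroxisomes, the difference was -1.43 (adjusted p = 0.0475), with 27.5, 18.2 and 26.5 CPM at 8 weeks and 43.1, 40.5 and 8.79 CPM at 16 weeks in PBS livers and 13.5, 12.7 and 12.8 CPM at 8 weeks and 10.9, 15.1 and 71.0 CPM at 16 weeks in asparaginase livers. The 8.79 CPM is the only 16-week PBS male, and the 71.0 CPM is the only 16-week asparaginase female. The sign of the Acnat2 age difference in PBS livers depended on how sex was handled. Its log2 fold change was -0.28 in the main fit and 0.355 without a sex term. It was 0.10 in the 6 PBS libraries and 0.63 in their 4 females. Exons of Acnat2 overlap those of Gm12451. At an unadjusted p under 0.05 the difference held for 1517 genes. In the fit of the 12 adult libraries neither passed. Leaving out 1 asparaginase library at a time, 0 to 7 genes passed, with 0 without replicate 1 at 8 weeks or replicate 2 at 16 weeks.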

How the results depend on the processing

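No paired analysis was possible because replicate numbers follow the order of deposit and tie no samples together. The 67 called genes kept their direction in all 22 alternatives wherever they were tested, but every 16-week liver already lay on that side of the 8-week livers of its sex, so this is no sign of stability. The number of calls (67, with 29 rises and 38 falls) moved more. It was 716 (359 and 357) with DESeq2, 171 (73 and 98) without a filter on low counts, 261 (71 and 190) in the 6 PBS libraries alone and 107 (24 and 83) in their 4 females, where 22 of the 67 were called. With 1 sex term over all ages 51 genes rose (98 calls), and at an adjusted p under 0.01 only 3 falls and 0 rises remained. With 1 library of the 6 left out, calls ran from 3 to 397, rises from 1 to 209 and falls from 2 to 188. In alternatives chosen after the data were seen, calls were 40 (17 and 23) without both 8-week asparaginase libraries high in squamous genes, 0 (0 and 0) without both 16-week PBS libraries high in acinar genes, and 18 rises (49 calls) without 3 libraries of 2 weeks that hold transcripts of both sexes. The remaining totals lay within 1.5 times of 67. Other scalings gave 50 (RLE) and 79 (upper quartile) calls. Over the 22 alternatives the core clock median ran from 0.23 to 0.52, that of fatty acid synthesis from -0.24 to -0.08 and that of oxidation from -0.40 to -0.13. Core clock rises numbered 8 with DESeq2, 4 in the 6 PBS libraries and 0 at an adjusted p under 0.01, against 1. They numbered 0, 1 and 2 without replicate 1, 2 or 3 at 8 weeks, and 0 without any 1 replicate at 16 weeks. Without the 3 libraries of 2 weeks that hold transcripts of both sexes they also numbered 0. Arntl fell in 3 fits given above. For asparaginase the calls were 1366 with DESeq2, 7 without both 8-week libraries high in squamous genes and 3 to 900 with 1 of its libraries left out (both added after the data were seen), against 689. For the difference of the age effects they were 242 with DESeq2, 1 with upper-quartile factors 0 in the 12 adult libraries, 0 without both squamous libraries and 0 to 7 with 1 asparaginase library left out, against 2. The causes of these moves were not tested.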

Other observations

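Some gene groups had members near the threshold without a call in the fit of all 18 libraries. For the counts below, 2493 of all 16213 genes had an unadjusted p under 0.05. DESeq2 called 716 of 15567 genes, 359 rises and 357 falls. Of 38 xenobiotic cytochromes P450 tested none passed in that edgeR fit (8 at an unadjusted p under 0.05, 5 called by DESeq2), with a median log2 fold change of -0.09. Cyp3a11, a major drug-metabolising enzyme, was at 5549, 5691 and 4406 CPM at 8 weeks and 1863, 1677 and 3562 CPM at 16 weeks, separate between the ages (log2 fold change -1.18 ± 0.28 SE, adjusted p = 0.0808). Cyp2c55 was at 16.3, 9.47 and 9.57 CPM at 8 weeks and 1.20, 1.58 and 3.75 CPM at 16 weeks (log2 fold change -2.44 ± 0.56 SE, adjusted p = 0.0794). Cyp2c55 and Cyp3a11 were each called in 7 of the 22 alternatives. These included the edgeR fits of the 12 adult libraries (adjusted p = 0.02455 and 0.04243) and of the 6 PBS libraries (adjusted p = 0.01906 and 0.02383). Of 39 genes of the urea cycle and amino acid breakdown, 35 were lower, 6 separately so, beside 8.18% of all genes. None passed in the fit of all 18 libraries (9 at an unadjusted p under 0.05, 5 called by DESeq2, median -0.22). Gldc, of glycine cleavage, was at 108, 137 and 96.8 CPM at 8 weeks and 44.0, 52.3 and 57.2 CPM at 16 weeks (log2 fold change -1.16 ± 0.26 SE, adjusted p = 0.0771). Of 30 acute phase genes, 24 were higher in PBS mice, 8 separately so, beside 8.09% of all genes. None passed in PBS mice (10 at an unadjusted p under 0.05, 4 called by DESeq2). In asparaginase mice 14 rose, beside 1.63% of all genes (medians 0.34 in PBS and 0.92 in asparaginase mice). With 1 asparaginase library left out, 1 to 11 of these genes rose there. The difference between treatments was not called for any of them, with a smallest adjusted p of 0.106.

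None of 23 male-biased genes passed in the edgeR fit of all 18 libraries (7 at an unadjusted p under 0.05, 1 called by DESeq2). Their median was 0.29. Cyp4a12a and Cyp4a12b of that list passed in the 3 alternatives given above. Of 39 female-biased genes 2 fell, Cyp4a14 and Cd36, beside 0.234% of all genes. Of these 39, 13 had an unadjusted p under 0.05, DESeq2 called 3 rises and 4 falls, and the median was -0.20.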
